A study of Drosophila melanogaster with 2 samples.

Results

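The dpr and DIP genes of Drosophila melanogaster were examined for binding of the chromosomal protein D1. They were taken from the genome annotation as the protein-coding genes whose symbol is dpr with a number or DIP with a Greek letter, which gave 32 of 13945 protein-coding genes (21 dpr genes and 11 DIP genes). Chromatin immunoprecipitation with sequencing was done with an anti-GFP antibody on whole pupae at 24 hour, from a transgenic line that stably expressed D1 with GFP at its C-terminal end, in 2 biological replicates that form 1 group. The labels name no promoter for the transgene and no sex, and all cell types of the animal were pooled, so the lists show neither which cells carried a peak nor how many did. No untreated or untagged group was compared, and a control entered only the authors' peak calling. Of the 4 peak lists, the pooled one came from both replicates together (30000 peaks) and 1 came from each replicate (30000 peaks each). The fourth, the IDR set, passed the authors' test of reproducibility between replicates and consisted of the highest 3388 pooled peaks. Read depth is unknown, and a gene without a peak is a gene without one among those listed.

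Dpr proteins (named for the defective proboscis extension response of the dpr1 mutant) and DIPs (Dpr-interacting proteins) are cell-surface proteins with immunoglobulin domains. Dprs on one neuron bind particular DIPs on another cell, and these pairs take part in the choice of synaptic partners, in the wiring of the optic lobe and neuromuscular junction and in the survival of some neurons, much of it during pupal life. D1 is a chromosomal protein with repeated AT hooks, short peptide motifs that contact the minor groove of A/T-rich DNA, and is best known at A/T-rich satellite repeats. Many dpr and DIP genes have long introns, which offer many A/T-rich stretches.

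Sequences of 200 bases were read from the NCBI Release 6 reference genome (dm6) and are written on the strand of the gene, with every run of at least 8 A or T bases in capitals. Such a run was common, being present in 75.9% of the 200 bp windows of the dpr and DIP genes and in 69.9% of those of other coding genes of at least the same length. The first 3 windows are centred on the summits, the positions of highest signal, of the peaks of these genes that were in the IDR set. They lie upstream of dpr19 (2L:10375821-10376020, plus strand), upstream of dpr16 (3R:5150638-5150837, plus strand) and in an intron of DIP-alpha (X:3546216-3546415, minus strand).
dpr19 summit: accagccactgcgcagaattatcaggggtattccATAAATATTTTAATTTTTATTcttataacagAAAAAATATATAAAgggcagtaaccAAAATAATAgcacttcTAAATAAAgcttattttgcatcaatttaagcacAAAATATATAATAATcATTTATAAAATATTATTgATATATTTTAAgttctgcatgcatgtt
dpr16 summit: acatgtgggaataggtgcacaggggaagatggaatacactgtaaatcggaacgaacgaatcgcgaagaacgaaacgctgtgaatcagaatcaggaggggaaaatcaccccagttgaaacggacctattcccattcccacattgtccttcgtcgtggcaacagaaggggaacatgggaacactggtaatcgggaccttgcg
DIP-alpha summit: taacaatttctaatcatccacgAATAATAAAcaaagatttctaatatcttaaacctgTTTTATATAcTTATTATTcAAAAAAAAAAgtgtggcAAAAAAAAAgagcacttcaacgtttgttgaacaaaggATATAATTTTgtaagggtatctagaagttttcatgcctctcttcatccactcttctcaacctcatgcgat
The dpr19 window was 75.5% A/T with 7 runs, the longest of 21 bases, and the DIP-alpha window was 70.5% A/T with 6 runs, the longest of 10 bases. The dpr16 window, under the highest peak of all 32 genes, was 50% A/T and its longest run had 5 bases.

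The next 2 windows show weaker pooled peaks, in introns of dpr7 (4:252196-252395, minus strand, signal 77.9) and of dpr10 (3L:10181676-10181875, minus strand, signal 55.9). Of the 35 pooled summits in these genes, the one in dpr10 was the most A/T-rich. The last 3 come from genes with no summit in any of the 4 lists: the 200 bases upstream of the dpr11 start (3R:6593331-6593530, minus strand) and the most A/T-rich intron windows of dpr11 (3R:6541369-6541568, minus strand) and DIP-gamma (3R:28930804-28931003, minus strand).
dpr7 summit: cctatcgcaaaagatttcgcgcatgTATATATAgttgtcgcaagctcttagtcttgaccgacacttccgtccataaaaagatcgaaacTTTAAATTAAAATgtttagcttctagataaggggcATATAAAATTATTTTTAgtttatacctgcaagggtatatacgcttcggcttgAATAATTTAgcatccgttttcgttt
dpr10 summit: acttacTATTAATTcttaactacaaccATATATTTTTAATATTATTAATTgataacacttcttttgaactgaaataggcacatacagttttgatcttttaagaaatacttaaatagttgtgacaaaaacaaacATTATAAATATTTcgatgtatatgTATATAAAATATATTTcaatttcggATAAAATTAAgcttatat
dpr11 upstream: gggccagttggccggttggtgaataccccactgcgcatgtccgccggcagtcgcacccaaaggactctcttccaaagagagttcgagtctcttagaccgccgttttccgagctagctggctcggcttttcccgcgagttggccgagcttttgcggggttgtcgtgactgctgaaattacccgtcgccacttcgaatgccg
dpr11 intron: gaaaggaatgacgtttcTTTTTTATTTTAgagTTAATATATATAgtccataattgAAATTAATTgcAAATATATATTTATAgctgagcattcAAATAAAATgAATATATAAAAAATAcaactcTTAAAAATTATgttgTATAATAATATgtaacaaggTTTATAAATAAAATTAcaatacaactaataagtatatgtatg
DIP-gamma intron: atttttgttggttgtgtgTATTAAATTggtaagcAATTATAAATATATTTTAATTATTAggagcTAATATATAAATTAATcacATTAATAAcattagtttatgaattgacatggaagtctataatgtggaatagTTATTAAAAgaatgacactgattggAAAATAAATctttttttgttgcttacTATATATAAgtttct
The dpr7 window was 65% A/T with a longest run of 17 bases, and the dpr10 window was 80% A/T with a longest run of 23 bases. Among the windows without a summit, the dpr11 intron was 81.5% A/T with 9 runs and the DIP-gamma intron 78.5% A/T with 7 runs and a longest run of 25 bases, whereas the dpr11 upstream window was 40.5% A/T with no run of that length. The A/T content of the dpr10 window and of both intron windows was thus above that of the dpr19 window, with a summit in the first and none in the others.

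Summits were rare in the dpr and DIP genes for their length. A summit was assigned to a gene when it lay in the gene body or within 500 bp of an annotated transcript start. The 32 genes held 35 pooled summits in 1.595 Mb, 0.0219 per kb (exact 95% Poisson interval 0.0153 to 0.0305, counting error only), and the other 13913 coding genes held 23748 gene assignments in 101.6 Mb, 0.234 per kb, with a summit in overlapping genes counted once for each. The ratio of these densities was 0.0939. In the lists of replicates 1 and 2 the dpr and DIP genes held 58 and 44 summits, which gave 0.0320 ± 0.00620 per kb, against 0.236 ± 0.000612 per kb in the other coding genes (SD, n = 2 each). Both replicates were thus far lower in the dpr and DIP genes, with ratios of 0.154 in replicate 1 and 0.117 in replicate 2. Without DIP-lambda, dpr21 and dpr12, which lie in the 6 Mb of 2R nearest the centromere, the pooled ratio was 0.145, and without DIP-alpha it was 0.0671.

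Without regard to length, the number of genes with at least 1 summit did not show this shortfall, but the dpr and DIP genes are long. Against genes of like length it did from 10 kb upward, as given below. Of the 32 genes, 12 (37.5%) had a pooled summit, against 32.2% of all coding genes. Each of the 12 also had a summit somewhere in the gene in both replicate lists, not always at the same position. In dpr7, dpr8, dpr10, dpr17, DIP-epsilon and DIP-kappa, no pooled summit had one within 100 bp in both replicates. The median length was 32.5 kb in the dpr and DIP genes and 2.16 kb in the other coding genes. The number of pooled summits had a Spearman's rho with gene length of -0.0889 among the dpr and DIP genes (n = 32) and 0.457 among the other coding genes (n = 13913), a description across genes, which are not independent replicates.

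**Figure D1:**
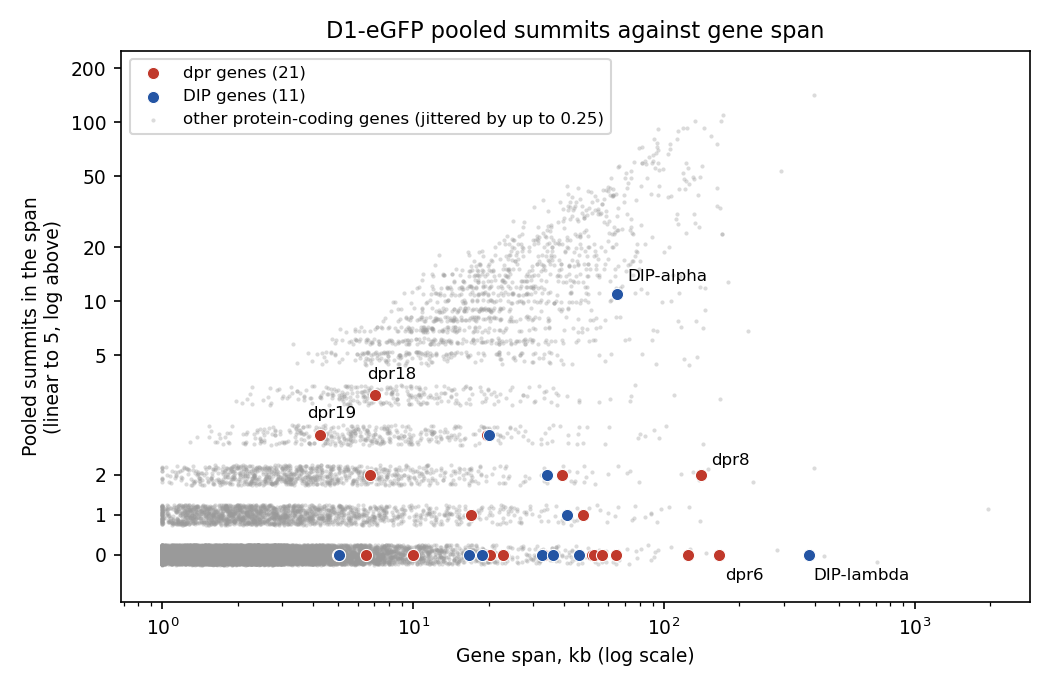
Pooled summits of each protein-coding gene against the length of DNA assigned to it in kb (gene body with 500 bp either side of its starts), on a log axis for length and an axis for counts that is linear to 5 and logarithmic above, with dpr genes in red, DIP genes in blue and other coding genes in grey (jittered). DIP-alpha, with 11 summits, is the 1 long dpr or DIP gene near the body of the other genes, and DIP-lambda and dpr6 lie at 0.

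A negative binomial regression of the pooled count on the logarithm of gene length was fitted over all 13945 coding genes, since summits cluster in some genes far beyond Poisson counting (slope 1.27, dispersion 1.55). The 32 genes held 35 summits, where the fit gave a sum of 628. The observed count was below the fitted one in 29 genes and above it in 3, dpr19, dpr7 and dpr18. No dpr or DIP gene passed an adjusted p of 0.05 in either direction, and neither did any other gene (0% of all coding genes lower, 0% higher). At an unadjusted p under 0.05 the regression singled out 1 dpr or DIP gene and 146 coding genes in all. A count of 0 in the longest, DIP-lambda, against a fitted 209, had an unadjusted p of 0.0482 in this model, the smallest of the 32. At this dispersion a count of 0, the lowest possible, thus could not pass the adjusted threshold in any of the 32 genes. The absence of lower calls among them was fixed in advance and does not bear on the shortfall. An exact Poisson test against 1 rate per kb, which treats summits as independent of each other, called 14 of the 32 genes lower and none higher, where it called 1.31% of all coding genes lower and 2.39% higher.

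The 14 genes were DIP-theta, dpr13, DIP-beta, DIP-kappa, DIP-gamma, dpr2, dpr3, dpr1, dpr12, dpr11, dpr21, dpr8, dpr6 and DIP-lambda, all of at least 30 kb, and 11 of them had no pooled summit. The test rests on length, so the calls were read against genes of like length. Of the 11 dpr and DIP genes of 30 to 60 kb, 9 were called lower, against 22.9% of all coding genes of that length, and of the 6 of at least 60 kb, 5 were called lower, against 36.5%. The exact Poisson adjusted p was 7.4e-35 for DIP-lambda, 3.94e-14 for dpr6, 2.02e-10 for dpr21 and 2.46e-09 for dpr8.

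The shortfall lay in the longer genes. Among genes of 3 to 10 kb, the dpr and DIP genes held 0.181 pooled summits per kb (exact 95% Poisson interval 0.0829 to 0.344) and the other coding genes 0.177, a difference within counting error. From 10 to 30 kb the density was 0.0517 per kb (0.0208 to 0.107) in the dpr and DIP genes and 0.299 in the others. From 30 to 60 kb it was 0.0128 (0.00468 to 0.0278) in the dpr and DIP genes and 0.292 in the others, and from 60 kb upward it was 0.0138 (0.00736 to 0.0236) in the dpr and DIP genes and 0.243 in the others. In these longer classes both replicates lay on the same side. The replicate densities at 30 to 60 kb were 0.0191 and 0.0170 per kb in the dpr and DIP genes and 0.291 and 0.291 per kb in the others, and at 60 kb or more they were 0.0266 and 0.0138 per kb against 0.233 and 0.244. The class of 60 kb or more includes DIP-lambda (379.1 kb) and dpr21 (124.5 kb), which had no summit and hold much repeated sequence. Its density without them is not given here.

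A pooled summit was present in 3 of the 8 dpr and DIP genes of 3 to 10 kb (38.8% of all coding genes of that length), in 3 of 7 at 10 to 30 kb (74%), in 4 of 11 at 30 to 60 kb (82.7%) and in 2 of 6 at 60 kb or more (88.3%). The share of dpr and DIP genes with a summit was thus near that of all genes in the shortest class alone. Among genes of at least 30 kb, 11 of 17 dpr and DIP genes (64.7%) lacked a pooled summit, as did 102 of all 663 coding genes (15.4%). In the order of the longest coding genes without a pooled summit, DIP-lambda was in place 3, dpr6 in place 5, dpr21 in place 8 and dpr11 in place 23. From the shortest class to the longest, the median A/T content was 57.8%, 58.9%, 57.6% and 59.1% in the dpr and DIP genes and 55.1%, 57.4%, 58.4% and 58.9% in the others.

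**Figure D2:**
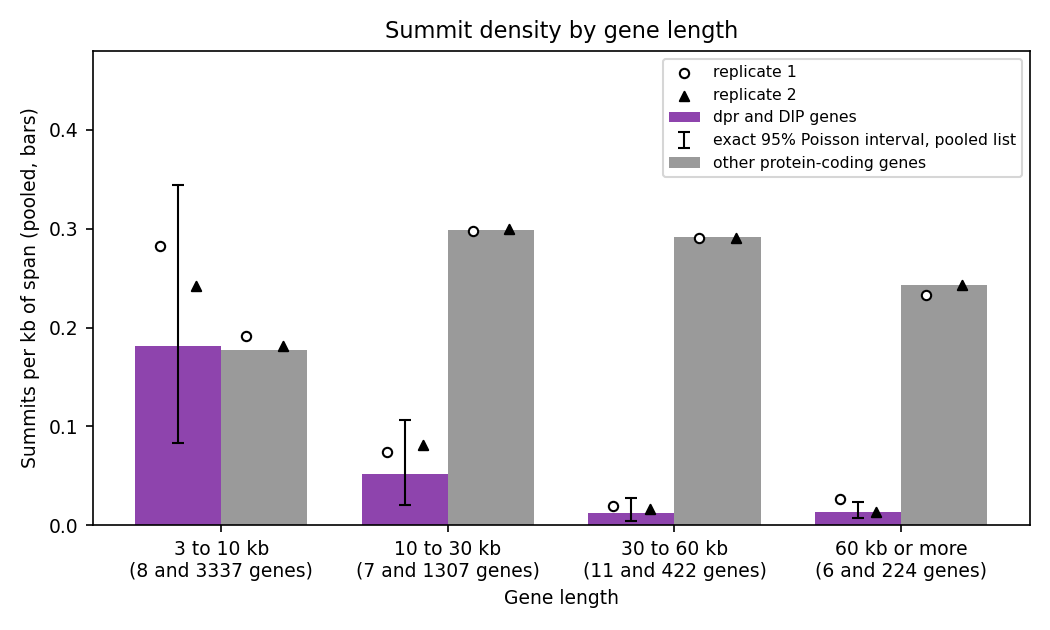
Pooled summits per kb in 4 classes of gene length, for the dpr and DIP genes (purple bars, with the exact 95% Poisson interval, counting error only) and for the other coding genes (grey bars), with the 2 replicates as points. The densities overlap at 3 to 10 kb and separate from 10 kb upward, where the other coding genes hold between 0.243 and 0.299 per kb.

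The long genes differed among themselves. DIP-lambda (2R:326768-705848, 379.1 kb), dpr21 (2R:3066499-3191011, 124.5 kb) and dpr11 (3R:6529169-6593330, 64.2 kb) had 0 summits in the pooled list and in both replicates. DIP-lambda and dpr21 lie near the 2R centromere, and 41.0% of the 31-base words of DIP-lambda and 77.0% of those of dpr21 occurred once in the genome, against a median of 99.9% over the 32 genes. The next lowest shares were 80.8% in dpr2, 82.4% in dpr3, 90.8% in dpr7 and 91.1% in dpr1. Of these, dpr1, dpr2 and dpr3 were called lower in the Poisson test and dpr7 was not. Repeated sequence can lower the reads that map, and the part this had in the counts of all these genes was not tested. In dpr11, a partner of DIP-gamma in the visual system, the share was 99.99%.

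The gene dpr8 (X:14322226-14462351, 140.1 kb) had 2 pooled summits, with 5 in replicate 1 and 1 in replicate 2. The summits had signals of 45.6, at its start, and 48.1, 101.6 kb into the gene. The gene dpr6 (3L:9974651-10139360, 164.7 kb), which encodes a partner of DIP-alpha, had 7 summits in replicate 1 and 0 in replicate 2 and in the pooled list. Those 7 had signals between 20.5 and 29.0 and ranks between 17274 and 29279 of 30000, in the lower part of that replicate's list.

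DIP-alpha (FBgn0052791, X:3507245-3571649, minus strand, 64.4 kb) stood apart from the other long genes. It encodes a DIP of motor neurons and optic lobe neurons that binds dpr6 and dpr10. It held 11 pooled summits, with 13 in replicate 1 and 12 in replicate 2, so the totals were close, though not all positions were shared. Against a fitted 22.4 summits in the regression the pooled count was no call, nor was it one in the Poisson test. Its highest summit, at X position 3546315 in intron 2 (26251 bp long), was in the IDR set. The signal there was 310 in the pooled list, 122 in replicate 1 and 187 in replicate 2, and its pooled rank was 563. It lay 15.65 kb from the nearest DIP-alpha start and 205 bp from the start of the non-coding RNA gene lncRNA:CR34335, whose position within the gene makes the assignment shared. The 4 pooled summits nearest the 3' end, with signals between 44.1 and 49.3, had a summit within 100 bp in replicate 1 and none in replicate 2. Those with signals of 58.7 and 43.8 had one in replicate 2 alone, and the one with 47.8 had none in either replicate. The next highest of the gene, with signals of 125 and 107, lay in introns 2 and 3, at 65% and 53.5% A/T.

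**Figure D3:**
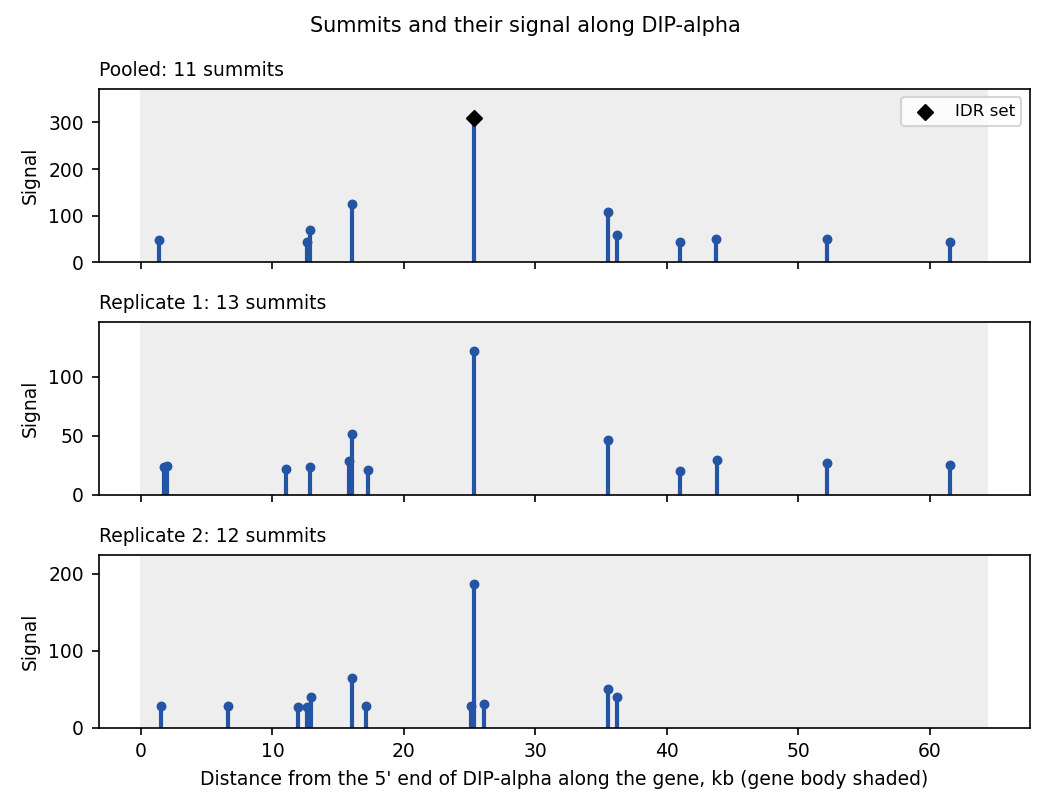
Signal of each summit along DIP-alpha in the pooled list and in each replicate, against distance in kb from its 5' end, with the gene body shaded and the summit of the IDR set as a diamond. The summit with a signal of 310 in the pooled list stands above all others in each list, and replicate 2 has none in the 3' part of the gene.

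Among the 32 genes, 3 had a summit in the IDR set, dpr16, DIP-alpha and dpr19, against 12.3% of all coding genes. By length, the IDR set reached 1 of 8 dpr and DIP genes at 3 to 10 kb (13.8% of all coding genes of that length), 1 of 7 at 10 to 30 kb (35.2%), 0 of 11 at 30 to 60 kb (46.7%) and 1 of 6 at 60 kb or more (60%). For dpr16 and dpr19 the summit was within 500 bp of their own start, as was an IDR summit in 8.46% of all coding genes. Near dpr16 (FBgn0037295, 3R:5150908-5170121, plus strand), which encodes a partner of DIP-gamma, the summit lay 171 bp upstream of the start and had a signal of 463 in the pooled list (rank 164), 187 in replicate 1 (rank 346) and 274 in replicate 2 (rank 99). The next start of another gene was 8875 bp away. Near dpr19 (FBgn0032233, 2L:10376168-10379905, plus strand) it lay 248 bp upstream, with a signal of 249.8 in the pooled list (rank 1013), 125 in replicate 1 and 124 in replicate 2, but the start of CG33303 was nearer, at 163 bp, so this peak cannot be given to dpr19 alone. Counted in the gene body alone, DIP-alpha was the 1 gene left, and without summits near starts of other genes dpr16 was.

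The other genes are given by their group of partners, as the binding relations are generally described. DIP-alpha, DIP-beta and DIP-lambda with dpr6, dpr8, dpr9, dpr10 and dpr21 held 15 pooled summits in 973 kb, 0.0154 per kb, in 3 of the 8 genes, and 29 and 16 in replicates 1 and 2. This length includes DIP-lambda (379.1 kb) and dpr21 (124.5 kb), which had no summit and hold much repeated sequence. Outside DIP-alpha and dpr8 the pooled summits of this group were 2 in dpr10, the muscle partner of DIP-alpha, which had 4 in replicate 1 and 2 in replicate 2. DIP-beta, of the optic lobe, had 0 pooled summits and 1 in replicate 2, with a signal of 28.4, and dpr9 had none in any list.

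DIP-gamma with dpr11, dpr15, dpr16 and dpr17 held 4 pooled summits in 168 kb, 0.0239 per kb. Of these, dpr16 had 3 pooled summits, with 5 in replicate 1 and 4 in replicate 2, and dpr17 had 1, with 2 in each replicate. DIP-gamma (3R:28925004-28970372, 45.4 kb), dpr11 and dpr15 had 0 in every list. DIP-delta and dpr12, a pair that acts in mushroom body wiring, had 0 in every list over 75.4 kb. DIP-eta, DIP-theta and DIP-iota with dpr1 to dpr5 held 1 pooled summit in 223 kb, 0.00449 per kb. It was 496 bp upstream of dpr2, at the edge of the window, and dpr2 had 1 summit in replicate 1 and 2 in replicate 2. DIP-iota (2L:6617134-6621700, 4.6 kb, among the shortest of all 32) and dpr4 had 1 summit each in replicate 1 alone, and DIP-eta, DIP-theta, dpr1, dpr3 and dpr5 had none in any list.

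The remaining 9 genes, DIP-epsilon, DIP-zeta, DIP-kappa, dpr7, dpr13, dpr14, dpr18, dpr19 and dpr20, held 15 pooled summits in 156 kb, 0.0959 per kb, with 19 and 20 in the replicates. This was the densest group and held 5 of the 8 shortest genes. Summits were found in dpr18 (4 pooled, 5 in replicate 1 and 6 in replicate 2), dpr19 (3, 5 and 3), DIP-zeta (3, 3 and 5), dpr7 on chromosome 4 (2, 2 and 3), DIP-epsilon (2, 2 and 1) and DIP-kappa (1, 2 and 2), and dpr13, dpr14 and the short dpr20 (3L:852720-857248, 4.5 kb) had none in any list. The spread between replicates was thus at most 2 summits in each of these genes, and 21 of all 35 pooled summits fell in the 4 genes with most. In all, 16 of the 32 genes, with 937 kb, had no summit in any list. The dpr genes held 0.0200 and the DIP genes 0.0245 pooled summits per kb, with exact 95% Poisson intervals that overlap (0.0118 to 0.0316 for dpr and 0.0143 to 0.0392 for DIP).

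**Figure D4:**
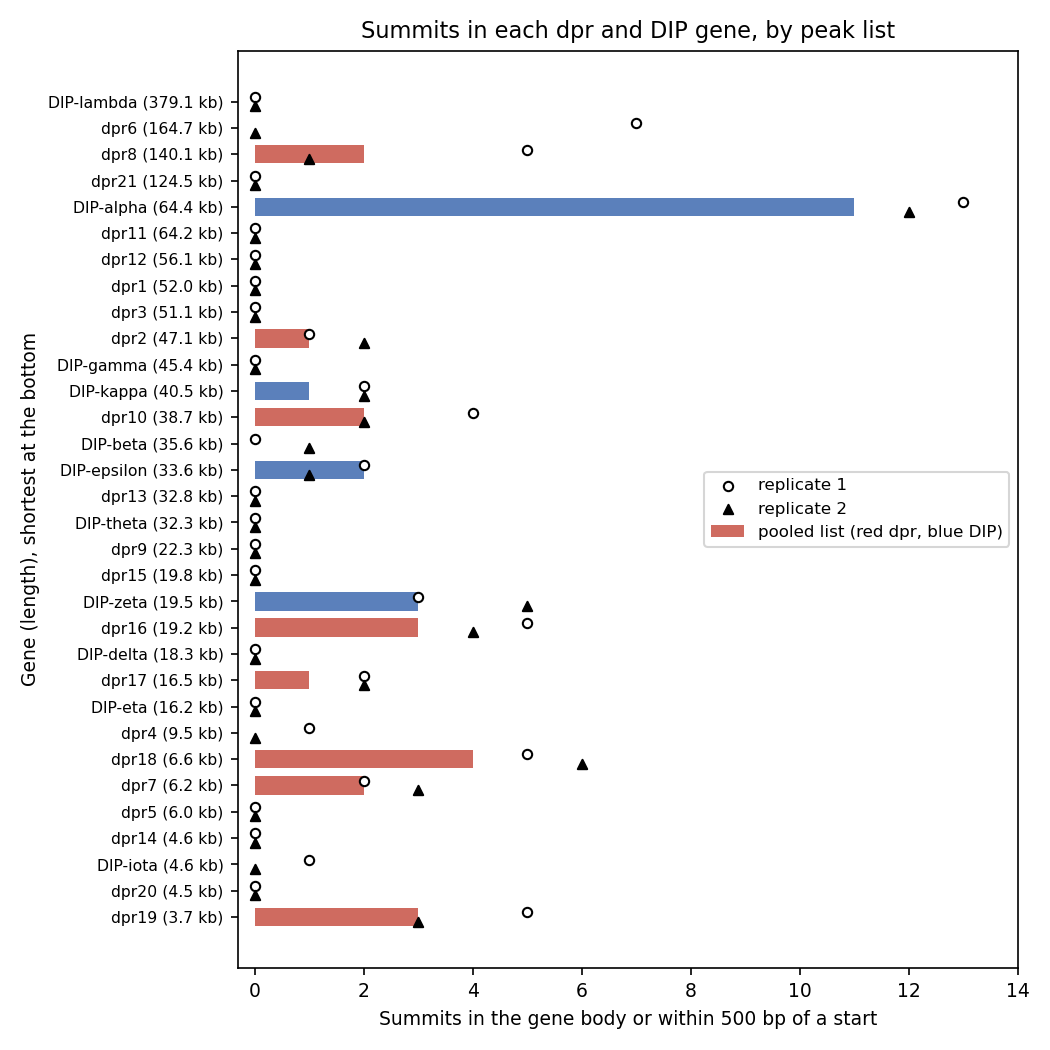
Summits of each of the 32 dpr and DIP genes in the pooled list, replicate 1 and replicate 2, ordered by gene length. DIP-alpha, with 11, 13 and 12, stands above the rest, and dpr6, with 0, 7 and 0, is the gene whose replicates differ most.

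Most pooled summits in these genes lay in introns. Of the 35, 24 were in introns (5 in the first), 4 in untranslated exons, 0 in coding exons and 7 outside the gene body. Neither the intron share of the DNA of these genes nor that of summits in other coding genes is given here. These counts therefore show no preference for introns. Within 500 bp of an own start lay 10 summits, in 8 genes, where 26.7% of all coding genes had such a summit. The median distance from an own start was 2.79 kb. Signals were moderate, with a median of 57.6 (43.1 to 463) against 64.96 over the 21784 pooled summits in other coding genes. A summit within 100 bp was found in both replicate lists for 12 of the 35 (34.3%), in replicate 1 for 23 and in replicate 2 for 22, while 44.7% of the summits in other coding genes had one in both. The IDR set held 8.57% of the summits in the dpr and DIP genes and 11.8% of those in other coding genes.

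The shortfall held at every level of A/T content. The 200 bases around the summits of the dpr and DIP genes were 61.7% ± 7.93 A/T (SD over 35 summits), against 62.2% ± 8.09 in other coding genes, a difference far below the spread between summits. The whole genes were 58.9% A/T, against 57.3% in other coding genes. When the genes were divided into windows of 200 bp, 34 of 7932 windows (0.429%) held a summit in the dpr and DIP genes and 20872 of 403996 (5.17%) in the 4411 other coding genes at least as long as the shortest of them. In windows below 55% A/T the share was 0.312% in the dpr and DIP genes and 2.80% in the others. At 55 to 60% it was 0.398% in the dpr and DIP genes and 4.92% in the others, at 60 to 65% it was 0.369% against 6.31%, at 65 to 70% it was 0.425% against 7.72%, and from 70% upward it was 0.986% against 8.81%. The share was higher in each successive class in the other coding genes, while in the dpr and DIP genes 8, 7, 6, 5 and 8 windows with a summit lay behind it. Of the 811 windows of at least 70% A/T in the dpr and DIP genes, 442 lay in the 16 genes with no summit in any list. Of the 442, 270 lay in DIP-lambda and dpr21, with their many repeated words, and 172 in the other 14 genes. The shares without DIP-lambda and dpr21 are not given here. Windows within a gene share their chromatin, so these shares are a description and were not tested.

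**Figure D5:**
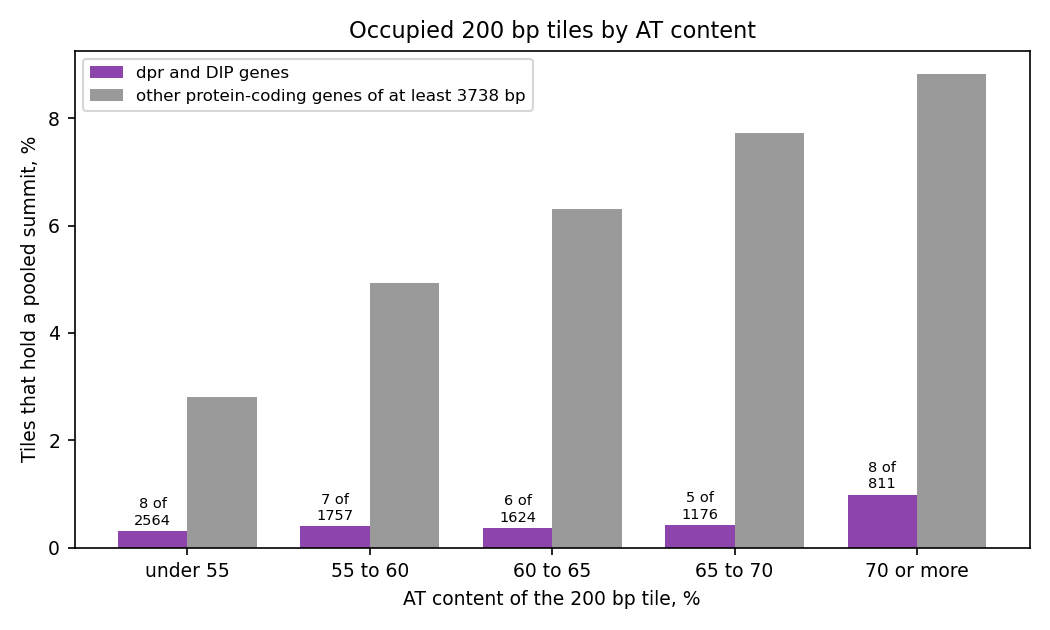
Percent of 200 bp windows (tiles) that held a pooled summit, in 5 classes of A/T content, for the dpr and DIP genes and for the other coding genes of like minimum length. The other coding genes are higher in each successive class, up to 8.81%, and the dpr and DIP genes stay below 1% in all. Of their 811 windows of at least 70%, 270 lie in DIP-lambda and dpr21, which had no summit and hold much repeated sequence.

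At the transcript starts, the median A/T content of the 200 bases around a start was 49.1% in the dpr and DIP genes and 58.5% in the other coding genes, and 18 of the 32 dpr and DIP genes (56.2%) were below 50%, against 13.1% of the other coding genes. Among genes of like length the share below 50% was 4 of 8 in the dpr and DIP genes and 14.7% in the others at 3 to 10 kb, 3 of 7 and 28.4% at 10 to 30 kb, 9 of 11 and 36.3% at 30 to 60 kb, and 2 of 6 and 32.6% at 60 kb or more. Its part in the low number of summits was not tested.

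The DNA around the genes was not as poor in summits. In the 50 kb on either side, with all dpr and DIP genes left out and DNA between neighbouring ones counted once, lay 375 pooled summits in 2871 kb, 0.131 per kb, against 0.0219 per kb within the genes, and 48 of the 375 were in the IDR set. These summits were uneven: the median over the 32 genes was 6.5 flank summits and 0.0702 per kb, and the flanks of dpr7, on chromosome 4, and dpr16 held 65 and 48. The flanks were denser than the gene for 27 of the 32, the gene was denser for dpr19, dpr18 and DIP-zeta, and DIP-lambda and dpr21 had no summit in gene or flank. Of the 20 genes without a pooled summit, 18 had one in the flanks. Among these 18, dpr9 had 23 flank summits, dpr12 22, DIP-gamma 6 and dpr11 2. All 18 are also among the 27 with denser flanks, since any flank summit makes the flanks denser than a gene without a summit. Neither share is given here for other coding genes and their flanks. The counts of 27 and 18 are therefore a description and do not show that these genes differ from others. The flank A/T content was 58.2% on average.

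Other genes of surface recognition proteins were counted in the same way. The beat and side genes, which encode another set of paired immunoglobulin proteins for axon guidance, had a median length of 41.2 kb and 66 pooled summits in 953 kb, 0.0693 per kb (81 and 55 in replicates 1 and 2), and 11 of 22 had a summit. A wider list of 39 surface recognition genes, with a median length of 40.4 kb, had 569 summits in 2378 kb, 0.239 per kb, and 30 had a summit. The pooled density was lower in the dpr and DIP genes, at 0.0219 per kb, than in either list, but each list's density rested on few genes. Chosen after their values were seen, DIP-alpha held 11 of the 35 summits of the dpr and DIP genes, beat-IIIc and beat-Ib held 41 of the 66 of the beat and side genes, and kirre held 142 of the 569 of the wider list. Without these, the densities were 0.0157 per kb in the dpr and DIP genes, 0.0304 in the beat and side genes and 0.215 in the wider list. The median density over genes was 0, 0.00514 and 0.124 per kb in the same order, so the typical dpr or DIP gene and the typical beat or side gene were both near 0. The negative binomial regression, which again could make no lower call at the adjusted threshold, called 0 genes in both lists, with 0 at an unadjusted p under 0.05. The exact Poisson test called 10 of the 22 beat and side genes lower and 0 higher. In the wider list it called 9 of 39 lower and 6 higher. Over all coding genes it called 22.9% lower at 30 to 60 kb, 36.5% lower at 60 kb or more, and 2.39% higher at any length. The difference between the lists was not tested.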

How the data were processed

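Peaks of D1-eGFP chromatin immunoprecipitation in whole pupae (2 biological replicates, 1 group per the labels) were used as deposited. The authors gave each peak a signal, on an unstated scale, and a −log10 q value, which is tied at the maximum of each deposited list and was not used. Per the deposited notes, peaks were called on each replicate and on both together with a control, on assembly dm6. No aligner, peak caller or reproducibility threshold is named in the labels or notes. The lists of 30000 peaks have one length, so that length says nothing of depth.

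Summits were counted in gene bodies with 500 bp around starts (Ensembl release 115 annotation, NCBI Release 6 sequence, 1-based). A negative binomial regression on log length was fitted over all coding genes (statsmodels 0.14.6, scipy 1.17.1, numpy 2.4.6, pandas 2.3.3, Python 3.11.15). It was also run on counts drawn from its own fit, which cannot show whether the model suits the real counts. Its two-sided tail p was adjusted by Benjamini-Hochberg over all genes. At the fitted dispersion of 1.55 a count of 0 in a dpr or DIP gene could not pass the adjusted threshold. The alternatives were other windows, lists, length terms and the exact Poisson test. All 32 genes are given, with full values for those with an IDR summit and for the longest and shortest 3. The members, gene lists, length classes, A/T windows, flanks and partner groups were chosen with earlier results of these data known. Errors are the SD over the 2 replicates, exact Poisson intervals for densities, or, for A/T content, the SD over summits, as named beside each value.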

Additional observations from a re-analysis of the deposited data

How the results depend on the processing

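Across 69 alternatives, 56 values stayed within a set limit, 13 moved and 0 reversed. For numbers of summits, density ratios and A/T content the limit was the SD over the 2 replicates. For numbers of genes, and of IDR summits found in both replicates, it was 1.5 times. Among the 56 were the calls of the negative binomial regression, 0 in each setting. A lower call was not possible at the fitted dispersions (1.08 to 1.82), so the lower calls of 0 show no stability. Of the 3 IDR summits of these genes, 3 had a summit in both replicates within 100 bp and 2 within 50 bp. Counted in 1 replicate alone, the summits in the dpr and DIP genes ranged from 44 to 58 and the density ratio to other coding genes from 0.117 to 0.154, and the A/T content at summits from 61.4% to 61.6%. In the highest 50% of the pooled list 15 summits were left. Alternatives chosen after seeing the data left out DIP-alpha (24 summits, ratio 0.0671) or the genes in the centromere-proximal 6 Mb of 2R (ratio 0.145). The exact Poisson test called 14 genes lower. The negative binomial regression, in which a count of 0 in these genes could not pass, called 0. Genes with a summit in the IDR set fell to 1 with the gene body alone, and to 1 without summits near starts of other genes. The A/T content at summits was 61.5% in windows of 100 bp and 61.1% in windows of 500 bp. The cause of these changes was not tested beyond what each setting leaves out. No paired analysis was possible because the 2 replicates form 1 group. Read depth is unknown, so it cannot be said which genes would gain summits in longer lists.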
